A study of Mus musculus with 3 samples.

Results

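The genes described here encode the chains of the collagens, the main structural proteins of the extracellular matrix. They were chosen by symbol (*Col*, a number for the collagen type, *a*, a number for the chain), which selected 37 of the 15554 protein coding genes in the table. Values are FPKM, the number of fragments of a gene scaled to its exon length and to the size of the library, so levels of different genes can be set side by side. The chains were sorted into classes by the kind of structure they build. There were 10 fibrillar chains, 7 FACIT chains (fibril-associated collagens with interrupted triple helices), 4 basement membrane network chains, 3 short-chain network chains, 5 chains of the beaded filament class, 4 transmembrane chains, 2 multiplexin chains, 1 anchoring fibril chain (*Col7a1*) and 1 other chain (*Col28a1*). Another 7 chain genes (*Col4a5*, *Col4a6*, *Col5a3*, *Col6a3*, *Col9a3*, *Col22a1* and *Col26a1*) were not analysed here. The sums, shares and ratios below do not include them.

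The cells were NIH3T3, an established line of mouse embryonic fibroblasts. Cells of the 3 groups were first kept in serum-free IMDM for 24 h and then in fresh serum-free IMDM for 24 h more, without a stimulus (CTRL), with 100 ng/mL of GDF15, or with 4 ng/mL of TGF-β. GDF15 belongs to the TGF-β superfamily, and the study asked whether it acts on fibroblasts as TGF-β does. RNA was pooled within each treatment and 1 library per treatment was sequenced, so no difference below has a replicate error or a p-value, and differences between cultures cannot be told apart from differences between treatments. In bulk RNA, a change in the number of cells that express a gene and a change in RNA per cell cannot be told apart either.

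Changes are differences of log2(FPKM + 1) between a pair of libraries, which understate the change of genes near or below 1 FPKM. The study's criterion of a 2-fold change corresponds to a change over 1. Because no replicate error exists, changes are given beside a local spread (the median absolute deviation, scaled, of the changes of genes with a similar mean FPKM). Of the 10 most abundant chains, 9 share the window of the most abundant genes, and so share 1 local spread per comparison. The local spread describes how genes of like abundance differed between a pair of libraries and does not measure the variation between cultures.

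The FPKM of all genes summed to 331179 in CTRL, 306603 with GDF15 and 310599 with TGF-β. Estimated depths were 17.3, 20.5 and 16.8, in units of 1e6 fragments. All 8 fibroblast markers examined were at 1 FPKM or more, but they did not move together. By each stimulus 2 of the 8 were higher, with median changes of -0.02 and -0.16. *Vim* (vimentin) was at 2245, 2018 and 1700 FPKM, *Fn1* (fibronectin) at 3738, 5815 and 5385, *S100a4* at 3817, 2529 and 2942, *Thy1* at 35.4, 34.7 and 43.8, and *Pdgfra*, a PDGF receptor, at 61.3, 61.3 and 35.0, in the order CTRL, GDF15 and TGF-β. Their part in the results below was not tested. None of 4 epithelial and none of 3 endothelial markers had a mean of 1 FPKM, with *Epcam* listed at 0 in every library. Of the 3 leukocyte markers 1 (*Cd68*) reached that level. Of the 5 chondrocyte markers *Sox9* did, with 68.0, 59.4 and 60.7 FPKM, while *Acan*, the core protein of cartilage aggrecan, was at 0.00747, 0.0128 and 0. Of the 3 osteoblast markers *Bglap* did, with 6.38, 1.51 and 2.56 FPKM.

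Collagen chains wind around each other as trimers, the triple helix. Glycine recurs through the helix in the repeat Gly-X-Y, because only glycine is small enough to face the axis. Fibrillar collagens have a long unbroken helix and pack side by side into striated fibrils, and FACIT collagens have several short helices and sit on the surface of those fibrils. Type IV collagen forms the sheet of basement membranes, types VIII and X form lattices of short chains, and type VI forms beaded filaments close to the cell. Fibroblasts make most of the types I, III, V and VI of connective tissue, and TGF-β is known as a strong inducer of fibrillar collagen genes.

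The classes differ in this repeat, which can be read in the coding sequences of the genes (GENCODE M21, GRCm38). Runs of at least 8 unbroken triplets were counted. The longest run was 216 to 344 triplets in the 10 fibrillar chains, with 2 or 3 runs per chain. It was 39 to 66 triplets in the basement membrane chains, with 20 to 25 runs, and 59 or 60 triplets in the short-chain network chains, with 8 runs each. Beaded filament chains had longest runs of 37 to 87 triplets and FACIT chains of 32 to 113. *Col12a1*, the longest chain with 3065 residues, had 7.63% of its residues in such runs. The stretches of 20 codons that follow show, for 1 chain of each of 5 classes, an unbroken start of the helix in the fibrillar chain and a break in the others. Glycine codons of the repeat are in capitals.

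*Col3a1* (fibrillar, codons 164 to 183, start of a run of 344 triplets): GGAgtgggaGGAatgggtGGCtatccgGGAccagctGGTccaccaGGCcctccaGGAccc

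*Col16a1* (FACIT, codons 417 to 436, break of 3 residues): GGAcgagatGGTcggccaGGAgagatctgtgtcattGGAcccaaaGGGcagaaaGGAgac

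*Col4a1* (basement membrane network, codons 154 to 173, break of 10 residues): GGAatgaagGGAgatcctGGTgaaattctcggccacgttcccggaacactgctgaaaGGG

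*Col6a1* (beaded filament, codons 508 to 527, break of 2 residues): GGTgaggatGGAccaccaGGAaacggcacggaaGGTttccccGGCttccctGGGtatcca

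*Col8a1* (short-chain network, codons 201 to 220, break of 2 residues): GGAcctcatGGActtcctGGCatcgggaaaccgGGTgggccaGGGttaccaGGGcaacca

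NIH3T3 fibroblasts expressed 18 of the 37 chains at a mean of at least 1 FPKM, and 10 of them at a mean of at least 100 FPKM. Of the other 19 chains, 4 (*Col9a1*, *Col13a1*, *Col19a1* and *Col25a1*) were listed at 0 in every library. By class, the expressed chains were 8 of 10 fibrillar, 3 of 7 FACIT, 2 of 4 basement membrane, 1 of 3 short-chain network, 2 of 5 beaded filament, 1 of 4 transmembrane and 1 of 2 multiplexin chains. The 10 most abundant chains, of types I, III, IV, V, VI and XVI, were the same in all 3 libraries. They ranged in CTRL from 3738 FPKM (*Col3a1*) to 99.0 FPKM (*Col5a1*).

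Collagen mRNA made up more of the total in both stimulated libraries. The 37 chains summed to 8410 FPKM in CTRL, 10885 with GDF15 and 9945 with TGF-β, which were 2.54%, 3.55% and 3.20% of all FPKM. Fibrillar chains held 76.9%, 79.8% and 78.4% of the collagen sum in the same order. Beaded filament chains held 16.3%, 11.99% and 11.8%, so their share was the one large share that was lower after both stimuli. Basement membrane chains held 4.37%, 4.89% and 5.66%, and FACIT chains 2.27%, 2.90% and 3.47%. The share of short-chain network chains was 0.116%, 0.314% and 0.554%.

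**Figure D1:**
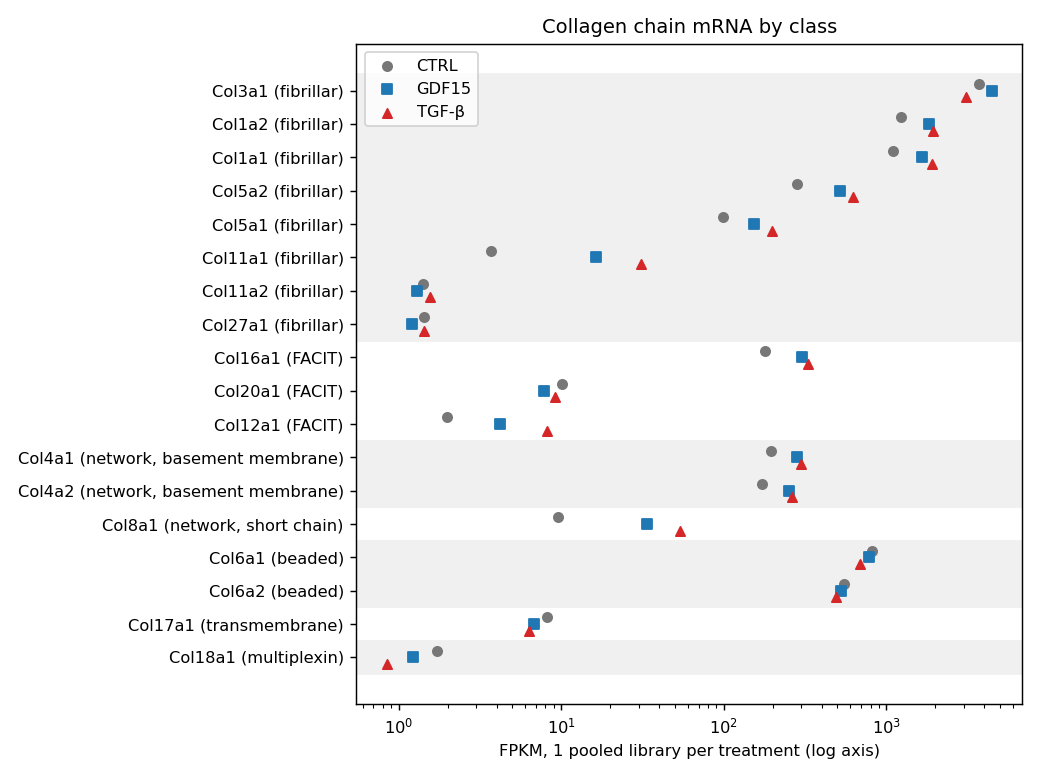
Level of the 18 collagen chains with a mean of at least 1 FPKM (log axis), grouped by class. Each point is 1 pooled library (circle CTRL, square GDF15, triangle TGF-β). *Col11a1*, *Col8a1* and *Col12a1* show the widest gaps between CTRL and the stimulated libraries, while the type VI chains lie close together.

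On the log2(FPKM + 1) scale, over 2-fold changes were few and were seen in 1 direction, and both points depend on the pseudocount. With none, which leaves out chains at 0 in any library, 7 chains were higher and 1 lower by GDF15. By TGF-β, 10 were then higher and 3 lower. Some of these chains had only a few fragments in CTRL, GDF15 and TGF-β, such as *Col6a5* (1, 4 and 2) and *Col14a1* (8, 2 and 1). The share of all genes without a pseudocount was not computed. With the pseudocount of 1, 2 of the 37 chains (*Col11a1* and *Col8a1*) were over 2-fold higher by GDF15 than in CTRL, against 0.212% of all 15554 genes, and none was over 2-fold lower, against 0.0772% of all genes. By TGF-β, 5 chains (*Col11a1*, *Col8a1*, *Col12a1*, *Col5a2* and *Col5a1*) were over 2-fold higher, against 0.579% of all genes, and none was lower, against 0.334%. *Col5a1* was at the edge of the criterion with a change of 1.004 (2.02-fold), and was at 0.95 and no longer over 2-fold when the trend with transcript length (below) was removed. These 5 chains belong to the fibrillar, short-chain network and FACIT classes.

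Among the 18 expressed chains, 10 lay more than 2 local spreads above the local median after GDF15, where 3.57% of 9226 genes at this level did so, and none lay as far below, where 3.2% did. After TGF-β the same 10 chains lay above, against 5.56% of genes, and none below, against 4.24%. They were *Col1a1*, *Col1a2*, *Col5a1*, *Col5a2*, *Col11a1*, *Col12a1*, *Col16a1*, *Col4a1*, *Col4a2* and *Col8a1*. Both comparisons use the same CTRL library, so they do not count as separate evidence for these genes. The 18 chains had a median change of 0.53 (GDF15) and 0.61 (TGF-β), beside -0.03 and -0.07 for all genes at this level. Of the 18, 11 (61.1%) were higher by GDF15 and 12 (66.7%) by TGF-β, against 44.4% and 37.2% of all genes at this level. Among other genes in the length range of these chains, 66.0% were higher by GDF15 and 47.9% by TGF-β. The share of chains higher by GDF15 was thus not above that of genes in this length range.

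Changes also followed transcript length in these libraries, and collagen transcripts are long. Across 5405 genes with a mean of at least 10 FPKM, Spearman's rho between length and change was 0.52 (GDF15) and 0.26 (TGF-β), given as a description across genes of the same libraries. Other genes in the length range of the expressed chains had a median change of 0.08 by GDF15 and -0.01 by TGF-β (n = 2935), and 66.0% and 47.9% of them were higher. After the running median by length was removed, the median of the 18 chains was 0.43 by GDF15 and 0.60 by TGF-β. Of the 10 chains, 9 were then still more than 2 local spreads above by GDF15, without *Col4a1*, and all 10 by TGF-β. *Col20a1* by GDF15 and *Col18a1* by TGF-β then lay more than 2 local spreads below.

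**Figure D2:**
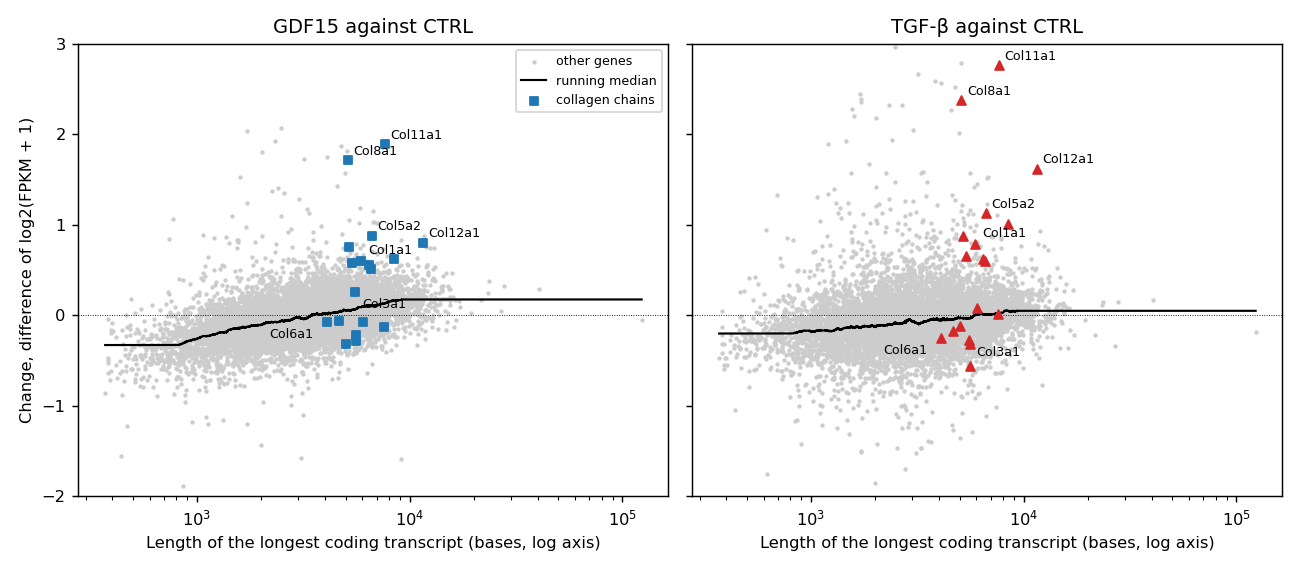
Change against transcript length (log axis) for genes with a mean of at least 1 FPKM, GDF15 on the left and TGF-β on the right. Grey points are other genes, coloured points collagen chains, and the line is the running median, which rises with length more steeply for GDF15. *Col11a1* and *Col8a1* lie far above it in both panels (1 gene by GDF15 and 3 by TGF-β lie outside the axis).

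The fibrillar class showed the largest range of change. The median over its 8 expressed chains was 0.59 by GDF15, with 6 higher and 2 lower, and 0.72 by TGF-β, with 7 higher and 1 lower. Of all genes at this level 44.4% were higher by GDF15 and 37.2% by TGF-β, and of the genes of like length 66.0% and 47.9%. Individual chains ranged from a change of -0.13 to 1.89 by GDF15 and from -0.27 to 2.76 by TGF-β.

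Type I collagen is the major fibril former of skin, tendon and bone, and *Col1a1* and *Col1a2* encode its chains. *Col1a1* (chromosome 11, 94936224 to 94953042) was at 1103 FPKM in CTRL, 1669 with GDF15 and 1902 with TGF-β. *Col1a2* (chromosome 6, 4504814 to 4541544) was at 1233, 1841 and 1948 FPKM. Both were higher in each stimulated library and highest with TGF-β. The folds were 1.51 and 1.72 for *Col1a1* and 1.49 and 1.58 for *Col1a2*, by GDF15 and TGF-β, which were 2.34 to 3.03 local spreads above the local median. Neither met the 2-fold criterion.

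*Col3a1* encodes the chain of type III collagen, a homotrimer that forms mixed fibrils with type I in elastic tissues. It was the most abundant chain in each library, at 3738 FPKM in CTRL, 4484 with GDF15 and 3092 with TGF-β. It was thus higher after GDF15 and lower after TGF-β than in CTRL. These were changes of 0.26 and -0.27 (0.827-fold), neither beyond 2 local spreads, and 0.41 and -0.16 with the running median by mean expression removed. *Col3a1* held 44.4% of the collagen sum in CTRL, 41.2% with GDF15 and 31.1% with TGF-β.

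Type V collagen is a quantitatively minor partner of type I that governs the start and the diameter of fibrils. *Col5a2*, one of its chains, was at 283 FPKM in CTRL, 522 with GDF15 and 621 with TGF-β. *Col5a1*, its other chain here, was at 99.0, 153 and 199.5 FPKM. Both were higher with each stimulus and highest with TGF-β. Changes by GDF15 were 0.88 and 0.62, and changes by TGF-β were 1.13 and 1.004, for *Col5a2* and *Col5a1*. *Col5a2* moved among the chains from the sixth place in CTRL to the fifth in TGF-β, above *Col6a2*.

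*Col11a1* encodes a chain of type XI collagen, known for its place in the core of cartilage fibrils. It was the chain with the largest change by either stimulus. Its level was 3.72 FPKM in CTRL, 16.5 with GDF15 and 31.0 with TGF-β, which was 4.43-fold and 8.34-fold higher than in CTRL. These changes of 1.89 and 2.76 were 8.25 and 12.04 local spreads above the local median. The gene lies on chromosome 3 (114030540 to 114220718).

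The other fibrillar chains were low and close together. *Col11a2*, another type XI chain, was at 1.41, 1.297 and 1.56 FPKM. *Col27a1*, with 329 triplets in 3 runs, the longest of 217, was at 1.42, 1.21 and 1.44 FPKM. None of these changes against CTRL reached 1 local spread. *Col2a1*, the main chain of cartilage fibrils, was seen with 5 fragments in CTRL, 11 with GDF15 and 7 with TGF-β, and *Col24a1* with 1 fragment in CTRL and none in the others, where the 95% Poisson interval of a count of 0 reaches 3.69.

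FACIT chains moved apart from each other. *Col16a1*, whose product lies at fibril surfaces and near basement membranes, was the abundant member with 179 FPKM in CTRL, 303 with GDF15 and 328 with TGF-β. Its changes were 0.76 and 0.87, or 2.92 and 3.32 local spreads above the local median. *Col12a1*, whose product binds type I fibrils in tendon and ligament, was at 1.99, 4.22 and 8.20 FPKM. That is 2.12-fold by GDF15 and 4.11-fold by TGF-β, with changes of 0.80 and 1.62 on the log2(FPKM + 1) scale, so only the TGF-β value met the criterion. *Col20a1* was at 10.0, 7.87 and 9.20 FPKM, lower in both stimulated libraries by less than 2 local spreads.

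The remaining FACIT chains were at or near 0. *Col14a1*, the closest relative of *Col12a1* in this class, was seen with 8 fragments in CTRL, 2 with GDF15 and 1 with TGF-β. *Col9a2*, a chain of the type IX collagen of cartilage fibrils, was seen with 3, 7 and 5 fragments. Their 95% Poisson intervals, which cover counting error only, overlapped between all libraries for each gene.

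*Col4a1* and *Col4a2* encode the chains of the type IV network found in nearly all basement membranes. *Col4a1* was at 197 FPKM in CTRL, 281 with GDF15 and 299.6 with TGF-β, and *Col4a2* at 171, 251 and 263 FPKM. Both chains were higher in the stimulated libraries by nearly the same fold, 1.43 and 1.52 for *Col4a1* and 1.47 and 1.54 for *Col4a2*. The chains of the kidney and lung form of type IV were barely seen, *Col4a3* with 1, 2 and 5 fragments and *Col4a4* with none, 3 and 2.

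The short-chain network class held the largest changes after *Col11a1*. *Col8a1*, a type VIII chain of vessel walls and of the membrane behind the cornea, was at 9.60 FPKM in CTRL, 33.8 with GDF15 and 54.0 with TGF-β. It was 3.52-fold and 5.63-fold higher, with changes of 1.71 and 2.38, which were 8.31 and 12.9 local spreads above the local median. *Col8a1* lies on chromosome 16 (57624258 to 57754737, minus strand).

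*Col10a1*, the chain of type X collagen made by hypertrophic chondrocytes, was at 0.128, 0.423 and 1.03 FPKM. These values equal 7 fragments in CTRL (95% Poisson interval 2.81 to 14.4), 27 with GDF15 (17.8 to 39.3) and 54 with TGF-β (40.6 to 70.5). The intervals of all 3 libraries did not overlap, for counting error only and without correction for depth. How many other genes have intervals that do not overlap was not computed. Beside genes of like abundance, *Col10a1* lay 1.86 local spreads above the local median by GDF15 and 3.39 by TGF-β. The FPKM folds were 3.31 and 8.09, while the changes on the log2(FPKM + 1) scale were 0.34 and 0.85 and did not meet the criterion. *Col8a2*, the partner of *Col8a1*, was seen with no fragment in CTRL and 1 in each of the others.

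Types X and XI are known from cartilage, so the chondrocyte markers are given beside them. Of the 5 markers, *Comp*, a cartilage matrix protein also made in tendon, moved in the same direction, with 0.360, 0.989 and 1.39 FPKM. *Sox9* was lower in both stimulated libraries, and *Acan*, *Matn1* and *Hapln1* were at or near 0 in each. The 5 markers summed to 68.4, 60.4 and 62.1 FPKM. Their part in the changes of *Col11a1* and *Col10a1* was not tested.

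Beaded filament chains did not share these changes. *Col6a1* was at 817 FPKM in CTRL, 778 with GDF15 and 687 with TGF-β, and *Col6a2* at 549.6, 528 and 488 FPKM. Both were lower in each stimulated library, with changes of -0.07 and -0.06 by GDF15 and -0.25 and -0.17 by TGF-β, all within 1 local spread. When the running median of the change by mean expression was removed, the GDF15 values turned to 0.08 and 0.09 and the TGF-β values were -0.13 and -0.0553. *Col6a4*, *Col6a5* and *Col6a6* were seen with 1 to 16 fragments in each library.

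Transmembrane, multiplexin and anchoring fibril chains were low. *Col17a1*, a component of the hemidesmosomes of epithelial cells, was at 8.13, 6.84 and 6.33 FPKM. *Col18a1*, the type XVIII chain from which endostatin is cut, was at 1.71, 1.23 and 0.845 FPKM, with changes of -0.28 and -0.56. Its FPKM folds were 0.720 and 0.493, so without a pseudocount the TGF-β value (-1.02) was over 2-fold lower. *Col7a1*, the chain of the anchoring fibrils under epithelia, was at 1.18, 0.896 and 0.797 FPKM. All these values were lower in both stimulated libraries, and none was beyond 2 local spreads. *Col15a1* and *Col23a1* were seen with at most 2 fragments in any library.

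*Col28a1*, a chain outside the main classes, was at 0.292 FPKM in CTRL, 0.648 with GDF15 and 1.24 with TGF-β. These values equal 22 fragments (13.8 to 33.3), 57 (43.2 to 73.9) and 89 (71.5 to 109.5). The intervals of GDF15 and TGF-β did not overlap that of CTRL but overlapped each other, for counting error only and without correction for depth. The GDF15 library was the deeper (20.5 against 16.8 with TGF-β, in units of 1e6 fragments). The overlap of raw fragments therefore does not show like levels. *Col28a1* lay 1.66 (GDF15) and 2.96 (TGF-β) local spreads above the local median.

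**Figure D3:**
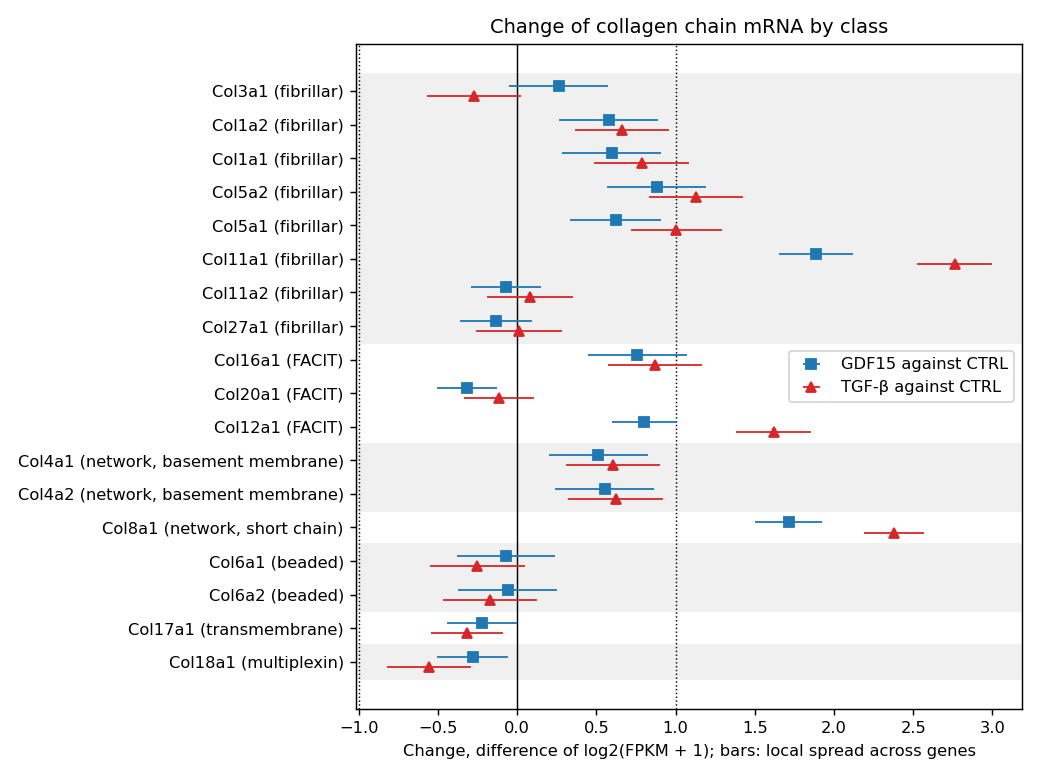
Change of the 18 expressed collagen chains against CTRL by GDF15 (squares) and TGF-β (triangles), as differences of log2(FPKM + 1). Bars show 1 local spread across genes on each side, not a replicate error, and dotted lines mark the 2-fold criterion. *Col11a1* and *Col8a1* lie past the line by both stimuli, and the type VI chains, *Col17a1* and *Col18a1* lie at or below 0.

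Chains that share a trimer were compared by the ratio of their FPKM within a library, which needs no scaling between libraries. In 3 trimers the ratio of the chains compared hardly moved. For type VI this covers *Col6a1* and *Col6a2* only, because *Col6a3*, also a chain of this trimer, was not analysed here. *Col4a1* to *Col4a2* was 1.15 in CTRL, 1.12 with GDF15 and 1.14 with TGF-β. *Col6a1* to *Col6a2* was 1.49, 1.47 and 1.41. *Col1a1* to *Col1a2* was 0.895, 0.907 and 0.976. The highest ratio exceeded the lowest by 2.94%, 5.64% and 9.13% in these trimers.

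For type V, *Col5a1* to *Col5a2* was 0.349, 0.292 and 0.321, a range of 19.6%. For type XI, *Col11a1* to *Col11a2* was 2.63 in CTRL, 12.7 with GDF15 and 19.96 with TGF-β, so the chains of this trimer moved apart by 4.82-fold and 7.58-fold. *Col11a1* is also known to assemble with *Col5a2* in hybrid trimers outside cartilage. Its ratio to *Col5a2* was 0.0131, 0.0316 and 0.04996, so *Col11a1* mRNA remained the far scarcer of the pair in each library. In type VIII, *Col8a1* had no partner at a measurable level, since *Col8a2* was seen with at most 1 fragment per library.

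Most ratios between types that meet in 1 fibril moved further than the ratios within types I, IV, V and VI. *Col3a1* to *Col1a1* was 3.39 in CTRL, 2.69 with GDF15 and 1.62 with TGF-β. *Col3a1* to *Col5a2* was 13.2, 8.58 and 4.98, although these genes are neighbours on chromosome 1. *Col5a2* to *Col1a2* was 0.230, 0.284 and 0.319, and *Col12a1* to *Col1a1* was 0.00181, 0.00253 and 0.00431. *Col16a1* to *Col1a1*, by contrast, stayed between 0.162 and 0.182.

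**Figure D4:**
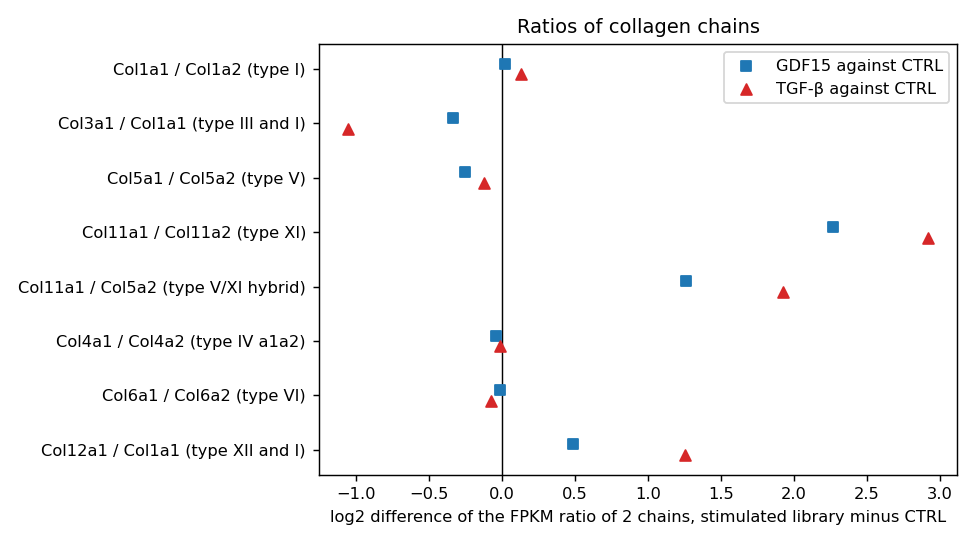
Log2 difference of the FPKM ratio of a pair of chains between a stimulated library and CTRL (squares GDF15, triangles TGF-β). Ratios of types I, IV and VI lie near 0, *Col11a1* to *Col11a2* lies at 2.27 and 2.92, and *Col3a1* to *Col1a1* lies below 0, at -1.06 by TGF-β.

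When TGF-β was compared with GDF15 directly, no chain was over 2-fold higher or lower with TGF-β, where 0.0836% of all genes were higher and 0.0193% lower. Of the 18 expressed chains, 3 lay more than 2 local spreads above the local median, against 5.29% of genes at this level, and 1 lay as far below, against 3.74%. *Col11a1* was 1.88-fold, *Col12a1* 1.94-fold and *Col8a1* 1.60-fold higher in TGF-β than in GDF15. The chain below was *Col3a1*, at 0.690-fold and -3.44 local spreads from the local median. The median change of the 18 chains was 0.13, with 13 higher and 5 lower, beside -0.04 for all genes at this level, of which 39.7% were higher. In this comparison longer genes tended to be lower, with a rho of -0.36 between length and change over the same 5405 genes. The 2935 other genes of like length had a median of -0.09, and 25.7% of them were higher. With the length trend removed, the median of the 18 chains was 0.23.

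**Figure D5:**
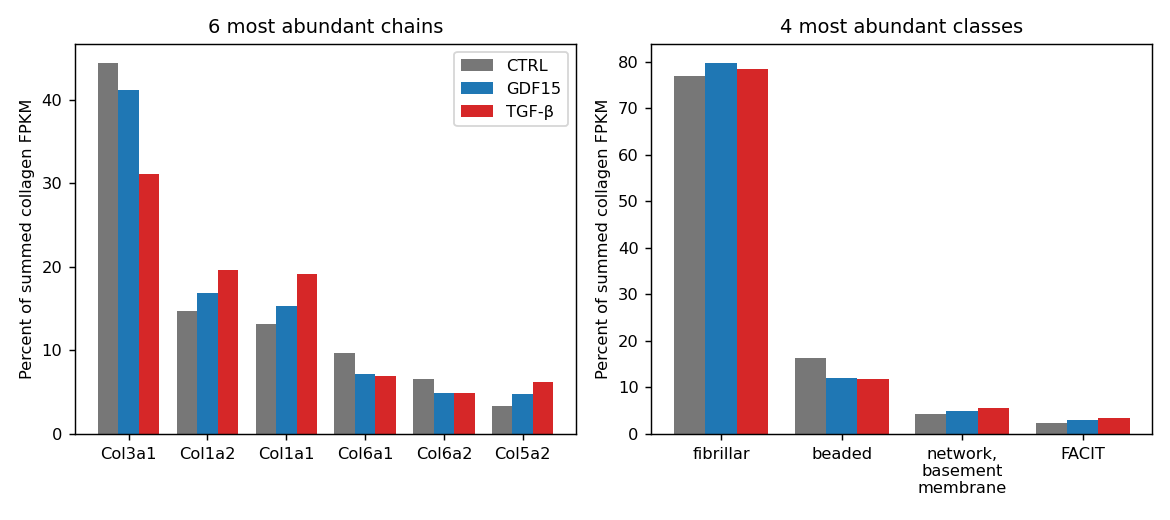
Share of the summed collagen FPKM in each library, for the 6 most abundant chains on the left and the 4 most abundant classes on the right. *Col3a1* falls from 44.4% in CTRL to 31.1% in TGF-β while *Col1a1*, *Col1a2* and *Col5a2* take larger shares, and the beaded filament class is lower in both stimulated libraries.

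Several chains lie next to each other in the genome (GENCODE M21, GRCm38), and neighbours did not all move alike. *Col3a1* (45311538 to 45349706) and *Col5a2* (45374321 to 45503282) lie tail to tail on chromosome 1 with 24614 bases between them, and their changes by TGF-β were -0.27 and 1.13. *Col6a2* and *Col6a1* lie in the same direction on chromosome 10, 85161 bases apart, with changes of -0.17 and -0.25. *Col4a1* and *Col4a2* lie head to head on chromosome 8 and overlap by 22 bases at their starts, with changes of 0.61 and 0.62. Whether strand was used in counting is not given in the sources used here, so fragments within those 22 bases cannot be assigned to either gene. The overlap holds a GC box (capitals) and reads as follows on the plus strand at chr8:11312805-11312826.

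*Col4a1* and *Col4a2* shared start: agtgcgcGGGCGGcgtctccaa

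Promoters of 250 bases before to 50 bases after the start (RefSeq, GRCm38.p6) were found for 31 of the 37 chains, 15 of them expressed. Some genes have more than 1 annotated start, so these chains had 34 promoters, and each promoter was counted. Motifs were searched on both strands. The GC box GGGCGG, which factors of the Sp1 family bind, was in 20 of the 34 collagen promoters (58.8%) and in 35.7% of all 32851 promoters. The Smad box core CAGAC was in 19 of the 34 (55.9%) and 49.6% of all promoters. The CCAAT box CCAAT was in 11 of the 34 (32.4%) and 37.4% of all, and the TATA box TATAAA in 5 (14.7%) and 13.6% of all. The AP-1 site TGANTCA was in 1 of the 34, that of *Col6a1* (2.94%), and in 7.81% of all promoters. No entry was used for *Col1a1*, *Col2a1*, *Col4a3*, *Col5a2*, *Col12a1* and *Col14a1*.

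The 150 bases before the start are shown for the chains over 2-fold higher by TGF-β that have an entry (*Col11a1*, *Col8a1* and *Col5a1*) and for *Col3a1*, which was lower with TGF-β. Motifs are in capitals, on either strand. They are matches of letters and were not tested as binding sites.

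*Col11a1*, chr3:114030390-114030539, plus strand: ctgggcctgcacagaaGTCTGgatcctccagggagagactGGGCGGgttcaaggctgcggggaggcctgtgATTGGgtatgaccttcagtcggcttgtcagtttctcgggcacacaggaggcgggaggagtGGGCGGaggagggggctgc

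*Col8a1*, chr16:57754738-57754887, minus strand: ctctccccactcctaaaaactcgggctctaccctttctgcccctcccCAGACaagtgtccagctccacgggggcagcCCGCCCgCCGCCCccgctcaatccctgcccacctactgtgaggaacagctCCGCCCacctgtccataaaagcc

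*Col5a1*, chr2:27886275-27886424, plus strand: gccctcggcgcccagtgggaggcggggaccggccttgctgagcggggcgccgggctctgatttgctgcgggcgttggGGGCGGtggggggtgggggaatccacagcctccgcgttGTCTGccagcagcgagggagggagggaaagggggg

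*Col3a1*, chr1:45311388-45311537, plus strand: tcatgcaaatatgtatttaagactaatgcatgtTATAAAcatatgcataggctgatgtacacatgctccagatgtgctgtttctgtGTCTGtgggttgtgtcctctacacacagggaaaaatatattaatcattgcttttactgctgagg

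The 4 promoters differed in these motifs. *Col11a1* had GC boxes 110 and 19 bases before the start and a CCAAT box 79 bases before it, and *Col8a1* had GC boxes at 73, 66 and 23 bases. *Col5a1* had a GC box at 73 bases. *Col3a1* had no GC box in this stretch and was the one of the 4 with the TATA letters, 117 bases before the annotated start. Each of the 4 held a Smad box core, at 134, 103, 35 and 64 bases for *Col11a1*, *Col8a1*, *Col5a1* and *Col3a1*. Of the 10 chains more than 2 local spreads above by both stimuli, 7 have an entry and 5 of these held this core. Of the other 8 expressed chains, all have an entry and 5 held it.

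Genes that modify, export, cut, cross-link or bind collagen were compared from a list of 50 symbols, which includes older names of the same genes. Of these, 40 were found in the table and 32 had a mean of at least 1 FPKM. Over 2-fold, 2 were higher and none lower by GDF15, and 3 were higher and none lower by TGF-β, where the shares of all genes were 0.212% and 0.0772% by GDF15 and 0.579% and 0.334% by TGF-β. Of the 32 genes, 27 were higher by GDF15 and 25 by TGF-β, with median changes of 0.22 and 0.25. The medians of all genes at this level were -0.03 and -0.07, with 44.4% and 37.2% higher, and 66.0% and 47.9% of the genes in the length range of the collagen chains were higher. The list was written with earlier results of these libraries known.

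Cross-linking held the largest change of the list. *Lox*, the lysyl oxidase that starts the covalent cross-links of collagen and elastin, was at 78.0 FPKM in CTRL, 289 with GDF15 and 452 with TGF-β, with changes of 1.88 and 2.52. *Loxl1*, *Loxl3* and *Loxl4*, the other expressed members of this family, differed from CTRL by less than 2-fold. Among collagen receptors, *Itga11*, an integrin chain that binds fibrillar collagen, was at 1.08, 5.20 and 7.43 FPKM, with changes of 1.57 and 2.02. *Itgb1*, the β chain of collagen-binding integrins, was the most abundant receptor gene with 139.5, 202 and 194 FPKM. The receptor genes were not all higher, and *Mrc2*, an endocytic collagen receptor, was at 65.6, 56.5 and 42.6 FPKM.

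Prolyl hydroxylation, which stabilises the triple helix, had all 7 expressed genes higher by GDF15 and 6 of 7 by TGF-β. These counts include any rise, such as the change of 0.00631 of *Leprel2* by GDF15. Among all genes at this level, 44.4% were higher by GDF15 and 37.2% by TGF-β. In the length range of the collagen chains, 66.0% and 47.9% of other genes were higher. *P4ha3*, a catalytic subunit, was at 7.42, 13.6 and 18.0 FPKM and met the criterion by TGF-β, with a change of 1.17. *P4hb*, the shared β subunit, was the most abundant gene of this step with 384, 485 and 529.7 FPKM. For lysyl hydroxylation and glycosylation, all 5 expressed genes were higher by each stimulus, and *Plod1* was at 55.9, 73.2 and 79.4 FPKM. For folding and export, 7 of 8 were higher by each stimulus, and *Serpinh1*, the collagen chaperone, was at 265, 348 and 380.4 FPKM.

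Propeptide cleavage releases the ends of fibrillar procollagens. Of its 3 expressed genes, 1 was higher by GDF15 and none by TGF-β, and all lay within 2 local spreads of the local median. *Pcolce*, an enhancer of procollagen C-proteinase, was at 419, 377 and 404 FPKM, and *Bmp1*, that proteinase, at 76.0, 67.4 and 59.0 FPKM. These differences were smaller than 2-fold.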

How the data were processed

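Stranded mRNA libraries (TruSeq) were sequenced in single-end mode, 1 per treatment (CTRL, GDF15, TGF-β). The authors deposited FPKM from Cufflinks, keeping the protein coding genes that UniProt lists as reviewed. The submitters' processing notes name TopHat 1.3.2, Bowtie 0.12.9, Cufflinks 2.0.2 and the build mm10. The gene annotation and the use of strand are not given in the sources used here.

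FPKM were used as deposited, and log2(FPKM + 1) was taken for changes. No count test can be run on FPKM, and with 1 library per group no test was made. A gene was counted as changed when its absolute change was over 1. The local spread is the scaled median absolute deviation over the gene and 250 genes on each side in mean FPKM. Medians are over genes with a mean of at least 1 FPKM. Total read numbers were not analysed here. Depth was estimated from the steps of a single fragment in low FPKM. Whole fragments of the low chains were fitted gene by gene and came to within 0.00533 of a whole fragment in 14 of 14 genes. That fit does not check the depth, since a gene seen in 1 library fits by construction. Estimates from depth and length can differ, as with 21.3 against the fitted 22 fragments of *Col28a1* in CTRL. Intervals of fragments cover counting error only.

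Length, coordinates and coding sequence came from GENCODE M21 (GRCm38), matched for 15474 rows (14725 by symbol and 749 by an older symbol) and all 37 chains, and may not be the authors' annotation. Promoters came from RefSeq (GRCm38.p6).

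The members, classes, pathway and marker lists were chosen with earlier results of these data known. All chains are given. Of the pathway list, the genes named are those over 2-fold against CTRL and the most abundant gene of each step. *Bmp1*, *Mrc2* and the *Loxl* genes were named after their values were seen. Alternatives were other pseudocounts, scaling to the upper quartile, removal of trends with expression or length, other minima, and the shares without *Col1a1*, *Col1a2* and *Col3a1*. Removal of a length and GC trend was added after seeing the data. The calculations were tested on simulated data. Scripts ran in Python 3.11.15 (scipy 1.17.1, numpy 2.4.6, matplotlib 3.10.9, pandas 2.3.3).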

Additional observations from a re-analysis of the deposited data

How the results depend on the processing

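Of 432 values of single chains under the alternatives, 420 moved by less than 1 local spread and none of the others changed direction. The alternative with no minimum FPKM for medians leaves single chain values as they were, so these could not move. Of 272 counts, medians, shares and ratios, 238 stayed within a limit, which was up to 1.5 times for counts. No limit was applied to the shares, which were all counted as outside it. Values near 0 changed sign for *Col6a1* and *Col6a2* by GDF15 (0.08 and 0.09 with the expression trend removed) and for *Col27a1* by TGF-β (-0.01 with the length trend removed), and so did the beaded filament median by GDF15 (-0.07 to 0.09, expression trend removed) and the log2 difference of the *Col1a1* to *Col1a2* ratio by GDF15 (0.02 to -0.01, length trend removed). The beaded filament median by TGF-β was -0.0948 with the expression trend removed, against -0.21. No paired analysis was possible because there is only 1 pooled library of each kind, and leaving a library out was likewise impossible.

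The pseudocount moved the counts over 2-fold, because several chains are near or below 1 FPKM. Counts with no pseudocount leave out chains at 0 in any library, and the shares of all genes over 2-fold were not computed for these settings. By GDF15, 4 chains were higher with a pseudocount of 0.1, and 7 higher and 1 lower with none. By TGF-β, 7 were higher with 0.5 or 0.1, and 10 higher and 3 lower with none, again without the chains at 0 in any library. Trend removal gave 3 by GDF15 (expression), and 4 (length) and 6 (length and GC) by TGF-β. In TGF-β against GDF15, 1 was higher with 0.1 and 2 with none. The median of the multiplexin class, which is *Col18a1* alone, was -0.44 (0.1) and -0.47 (none) by GDF15, -0.94 and -1.02 by TGF-β and -0.50 and -0.55 in TGF-β against GDF15. Without a minimum FPKM, chains at or near 0 pulled medians toward 0. By GDF15 they were 0.0 for FACIT, 0.34 for short-chain network, 0.27 for basement membrane, -0.14 for multiplexin, -0.0070 for transmembrane and 0.0106 for all chains. By TGF-β they were 0.0 for FACIT and transmembrane, 0.37 for fibrillar, 0.85 for short-chain network, 0.32 for basement membrane, -0.10 for beaded filament, -0.29 for multiplexin and 0.0121 for all chains. In TGF-β against GDF15 they were 0.0 for FACIT and transmembrane, 0.52 for short-chain network, 0.0501 for basement membrane, -0.0402 for beaded filament, -0.15 for multiplexin and 0.00352 for all chains.

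Shares depended on the 3 most abundant chains. Without *Col1a1*, *Col1a2* and *Col3a1*, in CTRL, GDF15 and TGF-β, fibrillar chains held 16.7%, 24.0% and 28.5% of the rest, FACIT chains 8.18%, 10.9% and 11.5%, beaded filament chains 58.5%, 45.2% and 39.1%, and basement membrane chains 15.7%, 18.4% and 18.8%. Depth limits the chains seen with a few fragments, whose differences were not tested.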
